A study of Mus musculus with 12 samples.

Results

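Liver RNA was compared between mice of 18 months (aged) and mice of 3 months (young), with 4 livers at each age. These 8 livers were chosen by the age in the sample titles and are 8 of the 12 in the series. The other 4 came from mice of 12 months (middle-aged), and they entered only the shared estimate of spread and the values set side by side near the end. Per the labels all animals were of strain C57BL/6N and each sample was 1 animal. The study's methods describe male, healthy mice on a standard diet without restriction, with no allele or drug named for any group. Total RNA of whole liver was sequenced, and every count is therefore a sum over hepatocytes and the other cells of the organ, in which fewer cells of a type and less RNA per cell cannot be told apart. The series' own design text gives 3 replicates per age, while 4 are titled. The labels and methods describe stranded libraries from young and old livers, whereas the study took its 3-age RNA-seq from a public atlas, so it is uncertain whether the stated strain, sex, diet and preparation apply to all these libraries. All Ensembl gene rows of the table were kept, 53465 in all, and the synthetic spike-in rows were set aside.

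The liver makes most plasma proteins, stores and releases glucose and fat, builds cholesterol and bile acids, clears ammonia and breaks down drugs. Most of these tasks belong to the hepatocyte and are switched by hormones and feeding: PPAR alpha (Ppara), a nuclear receptor for fatty acids, turns on fat burning and ketone synthesis in fasting, insulin does the reverse, glucocorticoids raise gluconeogenic genes, and the pulses of growth hormone that male rodents secrete keep a male pattern of liver enzymes. Kupffer cells (resident macrophages), sinusoidal endothelium, stellate cells, bile duct cells and lymphocytes make up the rest of the organ.

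Most liver genes had similar levels at both ages. Counts were scaled by DESeq2 size factors (normalised counts), a gene was called when its DESeq2 adjusted p was under 0.05, and fold changes are on the log2 scale, aged over young. Of 28449 genes with counts in any library, 13527 were tested after independent filtering and 484 were called, 3.58% of those tested. Of the called genes 253 were higher in aged livers (1.87%) and 231 were lower (1.71%). The typical called change was modest: its median size was 0.68 log2 units, 158 of the 484 were under 0.5 and 160 were at least 2-fold (1.18%). All 4 aged values lay above all 4 young values in 520 of the tested genes (3.84%) and below them in 499 (3.69%), and 377 of the called genes had such separated groups. The balance of the directions rests on the scaling. Scaled to total gene counts, 648 genes were higher and 139 lower, and scaled to the spike-ins, 9197 were higher and 11 lower, with the median gene shifted by 0.115 and 1.16 log2 units. The directions and calls below are relative to the median gene of the size-factor scaling. Most falls are not called under the spike-in scaling, and many members of lists described as lower are called higher there.

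**Figure D1:**
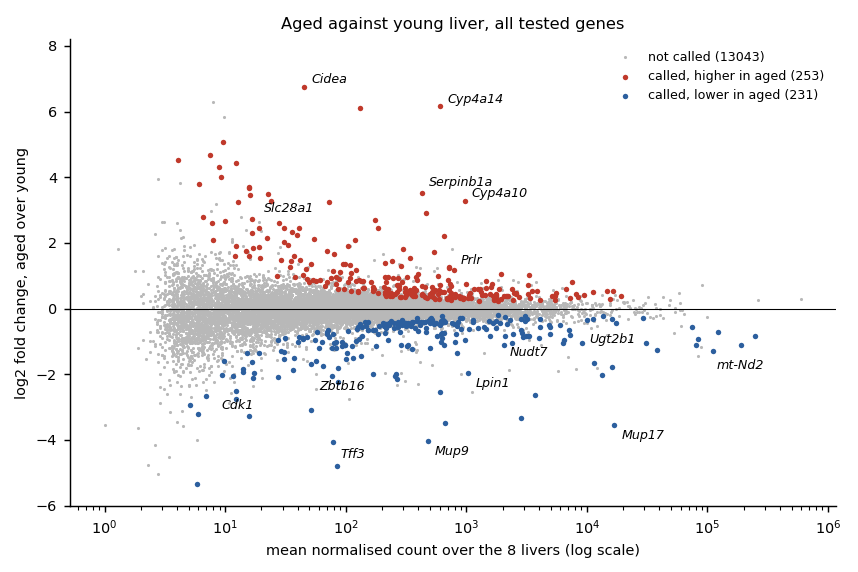
Log2 fold change of each of the 13527 tested genes, aged over young (vertical axis), against its mean normalised count over the 8 livers (log axis). Grey points were not called, 253 red points were called higher in aged livers and 231 blue points were called lower; most genes of any abundance lie near 0.

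A few libraries stood apart, and the results that rest on them are given with and without them. Gene counts per library ran from 8124312 to 10390377. Young replicate 3 had 22284 genes with a count against 16361 to 17111 in the other 7 livers, and young replicate 2 gave 19.2% of its gene counts to mitochondrially encoded genes. Spike-in abundances split the livers into set A (replicates 1 and 2 of each age) and set B (replicates 3 and 4), so fold changes are also given within each set, which is a grouping made from the data and not one of the study's. Without aged replicate 1, 1291 of 12350 genes were called, 611 higher (4.95%) and 680 lower (5.51%). Leaving out young replicate 2, aged replicate 3 or aged replicate 4 instead lowered the count to 258, 237 and 321. Hepatocyte markers (Alb, Ttr, Apoa1, Hnf4a) summed to between 669020 and 732457 normalised counts in young and between 706660 and 923934 in aged livers, with none of the 4 called, so both groups carried the labelled tissue. The adipocyte markers Adipoq and Plin1 summed to at most 21.3 in any of the 8 livers.

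Major urinary protein genes made up most of the largest falls. Among called genes that averaged 50 or more normalised counts and had no overlap between the groups, the largest rises included Serpinb1a, Cyp4a10, Noct, Marco, Ntrk2, Fam198a, Atp6v0d2, Mme, Clstn3, Acot4 and Pik3c2g. The largest falls included Mup-ps20, Tff3, Mup9, Mup17, Mup15, Mup18, Mup6, Mup16, Serpina4-ps1, Igfbp1 and Il1r1. Serpinb1a, an intracellular inhibitor of neutrophil elastase and other serine proteases (ENSMUSG00000044734, chromosome 13, 32842092 to 32851185, GRCm38), led the rises with 86.0, 42.0, 77.0 and 69.3 normalised counts in young replicates 1 to 4 and 443, 614, 983 and 1105 in aged. Every aged liver exceeded the highest young one, and the log2 fold change was 3.52 ± 0.33 (DESeq2 adjusted p = 5.69e-22). It was called in all 20 alternatives other than the spike-in scaling, under which fold changes were read only relative to the median gene. Mup-ps20 and Serpina4-ps1 are pseudogenes close to expressed relatives, so their reads are uncertain.

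Mme, the membrane peptidase neprilysin, rose from 167, 87.9, 213 and 229 normalised counts in young replicates 1 to 4 to 281, 380.5, 718 and 664 in aged (1.55 ± 0.31, DESeq2 adjusted p = 0.000135), and it was called in the same 20 alternatives. Marco, the scavenger receptor of macrophages, had 791 normalised counts in aged replicate 1 against 96.1 to 261 in the other aged and 36.7 to 79.1 in young livers. The groups did not overlap. Without that liver the log2 fold change went from 2.46 to 1.43 (adjusted p = 0.0178 and 0.0273), and Marco was called in 11 of 19 alternatives with a test. Maoa, which oxidises amine neurotransmitters, and Pigr, the receptor that carries polymeric immunoglobulin into bile, also rose; both were chosen after their values were seen. Pigr had 11872, 12355, 12151 and 11624 normalised counts in young and 17245, 21023, 15433 and 16615 in aged livers (0.55 ± 0.09, adjusted p = 7.12e-07).

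Tff3, a trefoil peptide of mucous epithelia, had 146, 346, 65.2 and 33.2 normalised counts in young and 15.1, 13.5, 2.6 and 4.5 in aged livers. Igfbp1, a binding protein for insulin-like growth factors that insulin represses, had 260.1, 569, 482 and 429 in young and 182, 77.1, 119.7 and 16.1 in aged livers (-2.14 ± 0.59, adjusted p = 0.0147). Il1r1, the signalling receptor for interleukin 1, had 521, 782, 191 and 155 in young and 89.3, 93.4, 93.5 and 119 in aged livers. The aged values of Il1r1 were nearly level and the young ones fell into 521 and 782 in set A and 191 and 155 in set B. Its age difference depended on the set (-2.83 in set A and -0.70 in set B, interaction adjusted p = 2.3e-05 by DESeq2).

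To describe pathways, 71 lists of genes were read against the fit across all genes. The lists held 2127 tested genes, of which 185 were called. A list is described by the number of its tested genes called in each direction and by its median log2 fold change, which over all tested genes was -0.0003. The shares of all genes called higher (1.87%) and lower (1.71%) are the background for each count. For counts at an unadjusted DESeq2 p under 0.05 the background is 2154 of 13527 genes. In 6 lists no gene was called, in 15 all called genes were higher and in 20 all were lower.

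**Figure D2:**
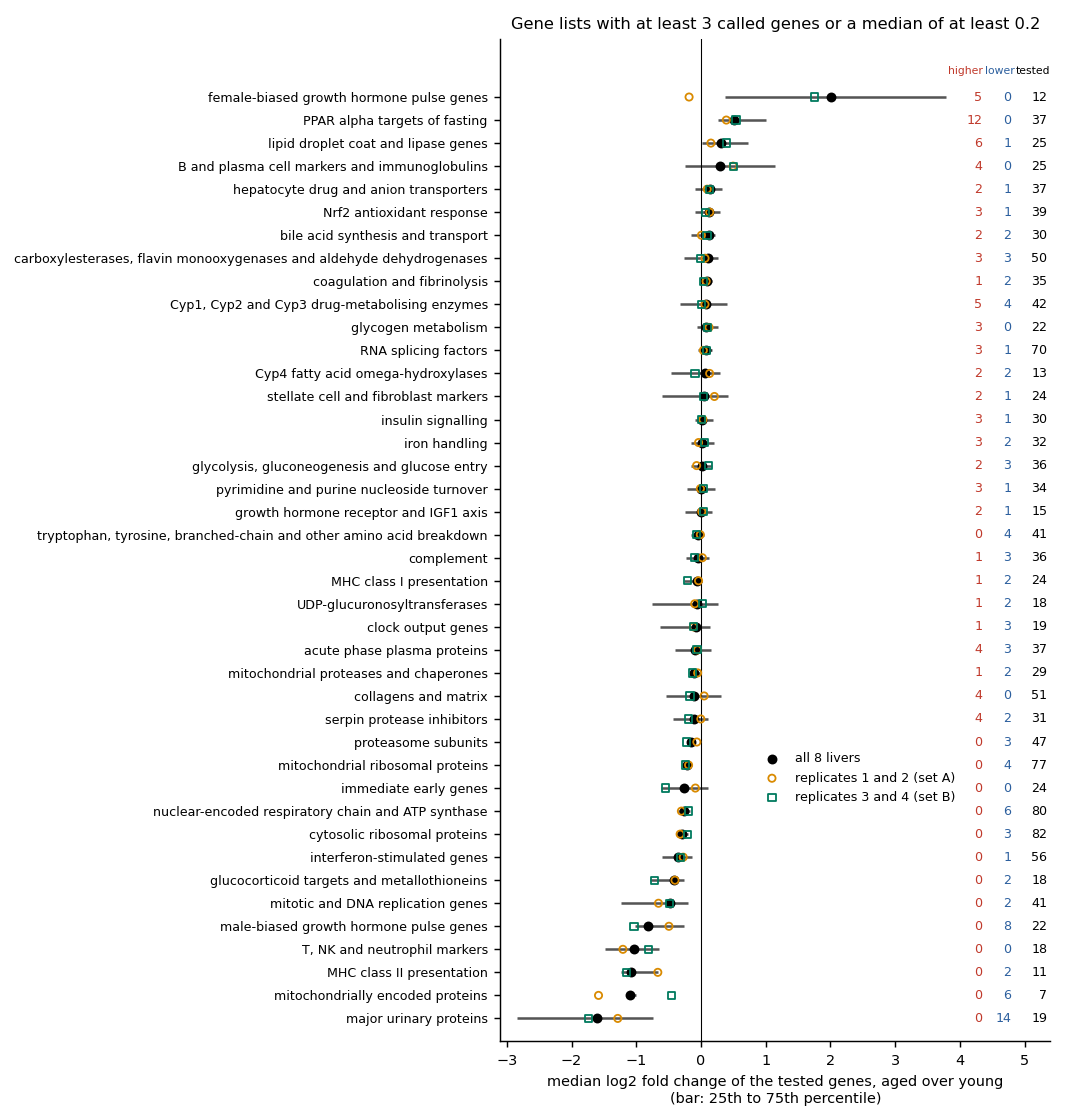
Median log2 fold change (horizontal axis, aged over young) of the tested genes of each list that had at least 3 called genes or a median of at least 0.2 in size; black points are all 8 livers with a bar from the 25th to the 75th percentile, open circles set A and open squares set B, and the numbers at the right are genes called higher, called lower and tested. PPAR alpha targets (12 higher, 0 lower of 37) lie above 0 and major urinary proteins (0 higher, 14 lower of 19) at the lower end, with both sets on the same side, whereas female-biased genes lie at the upper end over all livers and below 0 in set A.

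Genes that PPAR alpha switches on in fasting held the most called rises of the 71 lists. Of 37 tested, 12 were called higher and none lower, with a median of 0.51. The called members included Cyp4a14, Fgf21, Acot3, Cyp4a10, Vnn1, Cd36, Acot4, Fitm1, Retsat, Plin2 and Mgll. The median was 0.39 in set A and 0.54 in set B. Without aged replicate 1, 19 were higher, without aged replicate 3 there were 6, without young replicate 2 there were 7, and edgeR called 5. Per liver, the mean level of the list relative to the young mean was 0.302, 0.572, 1.394 and 1.0 log2 units in aged replicates 1 to 4, and between -0.499 and 0.209 in young livers. The 2 aged livers of set B were the highest of the 8, and young replicate 2 was the lowest.

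Acot4, a peroxisomal acyl-CoA thioesterase, had 138, 82.8, 121 and 122 normalised counts in young and 235, 299.6, 398 and 288 in aged livers (1.39 ± 0.23, DESeq2 adjusted p = 1.02e-06). The ages did not overlap, and the rise was called in the same 20 alternatives. Cyp4a14, a fatty acid omega-hydroxylase, had 34, 1.3, 16.6 and 14.6 in young and 20.1, 113, 3452 and 1204 in aged livers. Aged replicate 1 lay within the young range, and the 2 aged livers of set B held nearly all of the rise. Cyp4a10, its neighbour and a similar enzyme, had 218, 56.0, 228 and 222 in young and 262, 880.4, 3422 and 2462 in aged livers. In the Cyp4 family as a whole 2 of 13 genes rose, these 2, and 2 fell, the male-biased Cyp4a12a and Cyp4a12b. The Cyp4a genes are near-identical copies whose reads the counting could split, so the values of single members are uncertain.

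Other members rose mainly in the same livers. Vnn1, a pantetheinase, had 47.8, 22.9, 30.8 and 86.9 normalised counts in young and 59.2, 165, 659 and 337 in aged livers (adjusted p = 0.00686). Cd36, which takes up fatty acids, had 308, 213, 242 and 234 in young and 261, 432, 1502 and 1132 in aged livers (adjusted p = 0.016). The rise of Cd36 depended on the set: the log2 fold change was 0.42 in set A and 2.47 in set B (interaction adjusted p = 1.01e-05). Fgf21, the hepatokine of fasting, was close to absent in young livers (1.1, 0, 1.2 and 0) and had 9.0, 17.3, 33.2 and 15.2 normalised counts in aged ones (adjusted p = 0.00213); no fold is given for so few counts. Vnn1 and Fgf21 were chosen after their values were seen. Transcripts of the receptor itself, Ppara, were not called (416, 288, 463 and 610.2 in young and 367, 817, 826 and 578 in aged livers, adjusted p = 0.233), with aged replicate 1 inside the young range.

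Promoter sequence was looked at for this list because its members moved together. PPAR alpha binds, with its partner RXR, a direct repeat of AGGTCA, that is the 6 letters, any 1 base (N), and the same 6 letters again. Windows of 250 bases before to 50 after the start came from RefSeq (GRCm38.p6) for 30 of the 37 listed tested genes and for 10363 tested genes in all, and both strands were searched. No listed window held the exact repeat, which 6 of the 10363 genes had. With up to 2 mismatched bases, 6 of the 30 listed genes and 395 of the 10363 (3.81%) had a match, a tolerance chosen after the exact search was seen. Of the 8 called members with a window, 3 had one. The best match of the list was in Fabp1, a fatty acid binding protein that was not called. The sites of the 3 called members and of Fabp1 are shown with 6 bases on each side, 5′ to 3′ on the strand where the repeat reads, with the repeat in capitals.
Acot4, chr12:84038360-84038384, minus strand: acagacCGGCCAAAGGTCAtgcttc
Cd36, chr5:17835941-17835965, plus strand: ccaagtAAGTCAGAGGCCAgagaac
Plin2, chr4:86670266-86670290, plus strand: tgacttAGGTCAGGGGTCCtgaaag
Fabp1, chr6:71199806-71199830, minus strand: agatatAGGCCATAGGTCAgtgatt
The repeats begin 13, 63, 225 and 67 bases before a RefSeq transcript start of Acot4, Cd36, Plin2 and Fabp1. A gene could have several windows (34 for the 30 listed genes), and a match in any of them was counted. The Cd36 site lies inside the annotated gene (17781690 to 17888801, minus strand), before an internal start. A match describes letters in a window and not a bound site.

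Mitochondrial fatty acid oxidation and ketogenesis leaned the same way with small changes. Of 26 tested genes 2 were called higher, among them Bdh1, and none lower. The median was 0.20, and 23 of the 26 were above 0. Bdh1, which interconverts the 2 ketone bodies, had 1853, 1737, 1746 and 2260.1 normalised counts in young and 2452, 2566, 2436 and 2464 in aged livers, an increase seen in every aged liver (0.38 ± 0.10, adjusted p = 0.0125). Without aged replicate 1 the list had 8 higher and without young replicate 4 it had 6, without young replicate 1, 2 or 3 or aged replicate 2 it had 1, and edgeR called 1. Peroxisomal genes as a whole had a median of 0.04 with 1 of 46 higher (Abcd2, a peroxisomal transporter of very long fatty acids) and 1 lower.

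Several genes of the lipid droplet, the fat store of the cell, also rose. Of 25 tested, 6 were called higher (Cidea, Fitm1, Lipa, Plin2, Mgll, Hsd17b11) and 1 lower (Abhd5), with a median of 0.31. Fitm1, Plin2 and Mgll are also among the called PPAR alpha targets above. In 7 of the 25 every aged value lay above every young one, against 3.84% of all tested genes. Cidea, which enlarges droplets, had 2.1, 0, 1.2 and 0 normalised counts in young and 3.0, 3.9, 284 and 67.9 in aged livers. High values were thus found in the set B pair, with aged replicates 1 and 2 at a few counts (adjusted p = 0.00485). Lipa, the lysosomal acid lipase, rose in every aged liver, from 1448, 1346, 1399 and 1687 to 1734, 2101, 2696 and 2451 (0.61 ± 0.13, adjusted p = 0.000464). Fitm1, which helps droplets bud from the endoplasmic reticulum, had 318, 292, 326 and 619.9 in young and 771, 622, 878 and 837 in aged livers, with young replicate 4 almost level with aged replicate 2. Plin2, the main droplet coat protein of hepatocytes, had 3153, 2607, 3068 and 3580.0 in young and 3678, 4821, 5768 and 3917 in aged livers (0.55 ± 0.15, adjusted p = 0.014). Abhd5, the co-activator of the droplet lipase Pnpla2, fell from 425, 285, 353 and 246 to 175, 208, 262 and 233, with overlapping groups (adjusted p = 0.0469). Without aged replicate 1 the list had 13 higher and none lower, without aged replicate 3 it had 2 higher and 1 lower, and edgeR called 1. Plin2 was chosen after its values were seen.

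**Figure D3:**
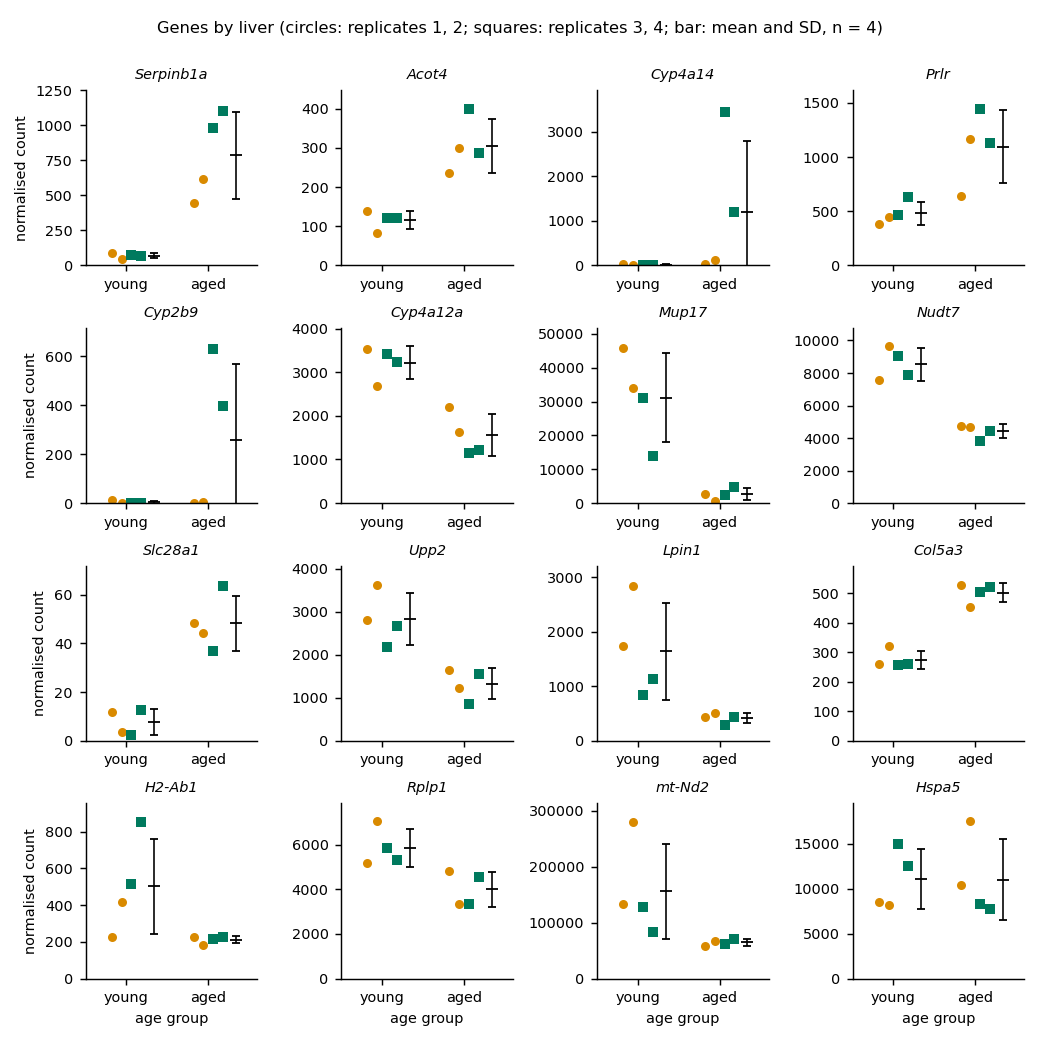
Normalised counts (vertical axes, from 0) of 16 genes in each liver, young at the left and aged at the right of each panel; circles are replicates 1 and 2, squares replicates 3 and 4, and the bar is the mean with its SD (n = 4). Serpinb1a, Acot4, Nudt7 and Col5a3 separate the ages in every liver, Cyp4a14 and Cyp2b9 are high in aged replicates 3 and 4, and Hspa5 moves in opposite directions in the 2 sets.

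Fat and cholesterol synthesis did not follow a single direction. De novo lipogenesis had 0 called higher and 2 lower of 29, and its median was -0.12 in set A and 0.37 in set B. Within set B 9 were higher and 2 lower, and without aged replicate 1 there were 8 higher and 2 lower, while edgeR called 1. The 2 genes that fell were the lipins, which make diacylglycerol and, in the nucleus, co-activate PPAR alpha. Lpin1 had 1739, 2852, 836 and 1138 normalised counts in young and 441, 517, 297 and 439.8 in aged livers, with every aged liver below every young one (-1.95 ± 0.36, adjusted p = 3.36e-05), and it was called in the same 20 alternatives. Lpin2 had 1866, 1744, 1358 and 2098 in young and 1518, 1300.4, 794 and 967 in aged livers, with overlap (adjusted p = 0.0285). Fasn, the fatty acid synthase, was not called: its values were 5855, 3132, 6196 and 4274 in young, 4075 and 4105 in aged replicates 1 and 2 and 10103 and 11583 in aged replicates 3 and 4. Of 28 genes of cholesterol synthesis and LDL uptake, 1 was called, and the list's median was -0.13. Soat2, which esterifies cholesterol, rose from 177, 131, 142 and 187 to 232, 272, 226 and 283 (adjusted p = 0.000566) and was chosen after its values were seen.

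Bile acid genes moved in both directions. Of 30, 2 were higher and 2 lower. Abcc3, which exports conjugates from the hepatocyte into blood, rose from 1002, 636, 985 and 1573 to 1593, 1999, 2164 and 1729.7 (adjusted p = 0.00745), and Fgfr4, the receptor through which gut FGF15 restrains bile acid synthesis, rose from 286, 283, 294 and 293 to 529.9, 473, 359 and 412 (adjusted p = 0.00045). Neither overlapped between the ages. Cyp7b1, an oxysterol hydroxylase, fell from 4212, 5168, 4270.3 and 3085 to 3329.9, 3032, 1296 and 1702 (adjusted p = 0.037), and Slco1a1, an uptake transporter, fell from 5519.7, 4404, 4815 and 4741 to 3547, 4466, 2238 and 3046 (adjusted p = 0.0287). Both are also male-biased genes, and both had aged values inside the young range. Cyp7a1, the rate-limiting enzyme of the classic pathway, was not called (730.3, 546, 1013 and 1682 in young and 365, 830.3, 852 and 818 in aged livers, adjusted p = 0.749). Among 29 genes of lipoproteins, 2 rose and none fell. Apoa4, which rides on triglyceride-rich particles, rose from 385, 341, 534 and 447 to 862, 1134, 1287 and 720.5 (1.23 ± 0.20, adjusted p = 4.23e-07), a rise called in the same 20 alternatives.

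Among genes under the sex-specific pattern of growth hormone the male-biased ones leaned lower, most in aged replicates 3 and 4. Rises of female-biased genes lay mainly in those same livers. Of 22 male-biased genes 8 were called lower and none higher, with a median of -0.82 (-0.50 in set A and -1.04 in set B). They were Cyp4a12b, Cyp4a12a, Nudt7, C8b, Elovl3, Cyp7b1, C6 and Slco1a1. Without aged replicate 1, 14 were lower and 1 was higher, without young replicate 1, young replicate 3, young replicate 4 or aged replicate 4 there were 5 lower, and edgeR called 4 and limma-voom 14. The list's mean level relative to young was -0.274, -0.512, -1.606 and -1.496 log2 units in aged replicates 1 to 4 and between -0.101 and 0.088 in young livers. Cyp4a12a, a male-specific omega-hydroxylase, had 3530.5, 2682, 3423 and 3226 normalised counts in young and 2212, 1634, 1157 and 1222 in aged livers (-1.05 ± 0.20, adjusted p = 3.45e-05). No aged liver reached the lowest young one. Nudt7, a peroxisomal hydrolase of coenzyme A (ENSMUSG00000031767, chromosome 8, 114133557 to 114154739), fell in both sets (-0.87 and -1.03), from 7546, 9686, 9067 and 7867 to 4739, 4676, 3833 and 4444 (-0.95 ± 0.13, adjusted p = 5.35e-10). Elovl3, a fatty acid elongase chosen after its values were seen, fell from 3106, 3839.9, 3051 and 5174 to 2778, 1456, 2171 and 1906 (adjusted p = 0.00879).

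Female-biased genes were scarce in these male livers: only 12 of the 24 listed passed the filter on low counts, some of them through the aged livers where they were high, so their counts are a description. Of the 12, 5 were called higher (Cyp2b9, Slc22a26, Acot3, Slc22a27, Ntrk2), while edgeR and limma-voom called none of them. Acot3 is also among the called PPAR alpha targets. Without aged replicate 3 none was called, without aged replicate 4 there were 2 and without young replicate 2 there were 3. The list's mean level relative to young was 0.436, 0.487, 2.85 and 2.48 log2 units in aged replicates 1 to 4. Its median log2 fold change was -0.18 in set A and 1.76 in set B. Cyp2b9, a steroid hydroxylase, had 12.7, 1.3, 0 and 1.0 normalised counts in young and 1.0, 2.9, 629 and 398 in aged livers. Its high values were in aged replicates 3 and 4, and its age difference depended on the set (interaction adjusted p = 1.79e-07). Slc22a27, an anion transporter, had 1.1, 2.5, 7.1 and 3.9 in young and 6.0, 5.8, 97.9 and 55.4 in aged livers, again highest in the set B pair. The list of the growth hormone receptor and IGF1 axis had 2 genes called higher and 1 lower of 15, with a median of -0.005. Prlr, the prolactin receptor, rose from 380.0, 444, 463 and 633 to 636, 1167, 1444 and 1133 (1.19 ± 0.23, adjusted p = 6.77e-05). Stat5a, which relays growth hormone and prolactin signals, rose from 61.6, 68.8, 87.7 and 87.9 to 99.4, 117, 124 and 122 (adjusted p = 0.0261), and was called in 9 of 20 alternatives. Igf1, the hormone that growth hormone induces in liver, was not called (4987, 6271, 5196 and 5082 in young and 4624, 5405, 4639.5 and 4553 in aged livers, adjusted p = 0.471).

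Major urinary proteins, pheromone carriers that male mice make in the liver, had the lowest median fold change of all lists. Of 19 tested, 14 were called lower and none higher, and all 19 had a fold change below 0, with a median of -1.61. Called changes ran from Mup9, with 1799, 711, 874 and 223 normalised counts in young and 76.3, 22.2, 50.7 and 71.5 in aged livers, to Mup3 at -0.56 on the log2 scale. Mup9 and Mup17 had no overlap between the ages. Mup17 held 45665, 34093, 30909.9 and 13852 normalised counts in young livers and 2719.7, 687, 2529 and 4727 in aged ones, and young replicate 4 was the lowest of the young for both. The copies are near identical, so the division of reads among members is uncertain. Summed over the 19 genes, which does not depend on the division among them, young livers held 354871, 371897, 314535 and 228531 normalised counts. The aged livers held 247560, 141785, 93794 and 138149, so that aged replicate 1 lay above young replicate 4. Without aged replicate 1, 18 were lower, without young replicate 2, aged replicate 2 or aged replicate 4 there were 9, and edgeR called 8.

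**Figure D4:**
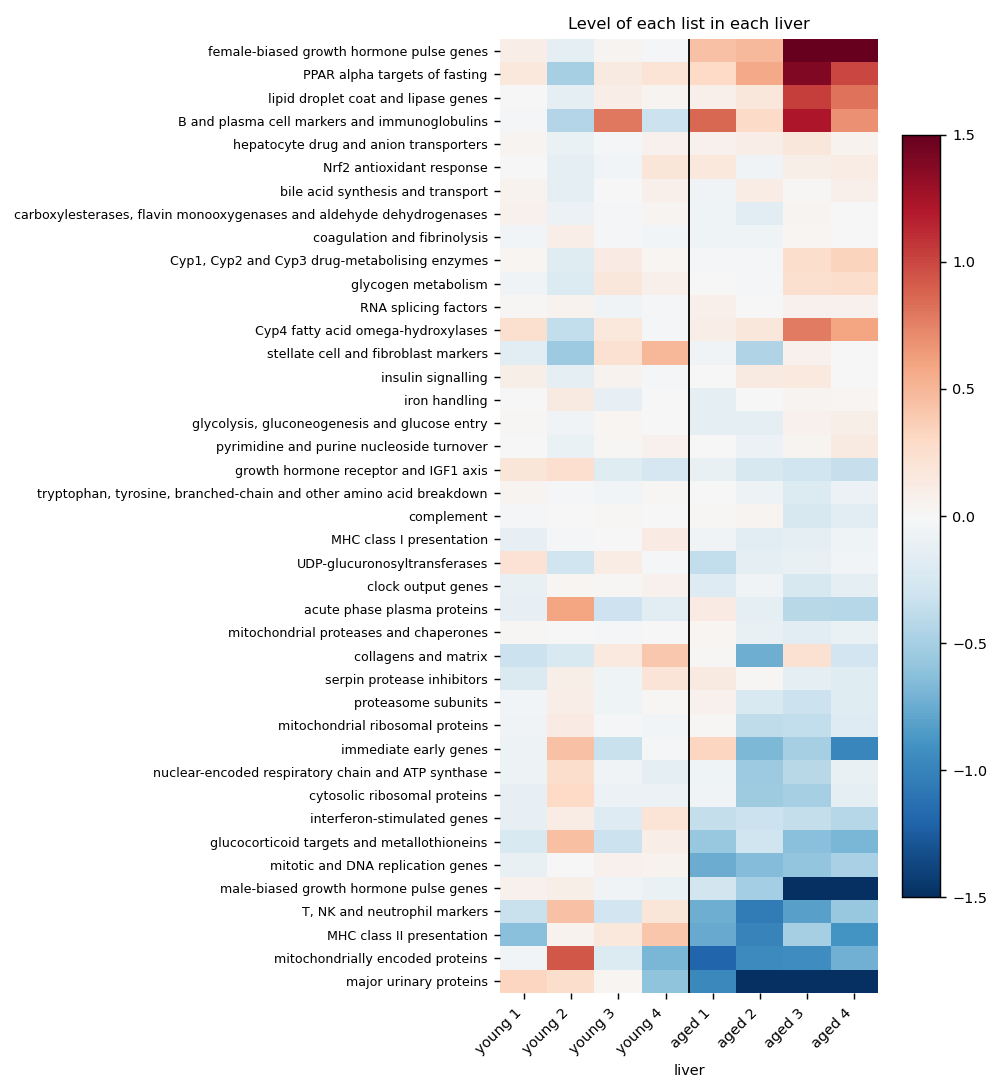
Mean log2(normalised count + 1) of each list in each liver (columns) minus the mean of the 4 young livers, in colour from blue (lower) to red (higher), with colours ending at 1.5. Sex-biased and PPAR alpha lists are strongest in aged replicates 3 and 4, major urinary proteins are low in all 4 aged livers, and ribosomal and respiratory chain lists are low in aged replicates 2 and 3 but near the young mean in aged replicate 1.

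Glucocorticoid targets leaned lower. Of 18 tested, 2 fell and none rose, with a median of -0.41 and 15 of the 18 below 0. Zbtb16, a zinc finger factor induced by glucocorticoids, fell from 346, 303, 128 and 306 to 73.3, 95.4, 51.6 and 52.7 (-1.99 ± 0.29, adjusted p = 1.91e-08). Errfi1, a feedback inhibitor of the EGF receptor, fell from 9865, 9653, 7204 and 7829 to 4159, 6074, 2205 and 4123 (-1.06 ± 0.23, adjusted p = 0.000692). In both genes the highest aged liver lay below the lowest young one, and both were called in the same 20 alternatives.

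Insulin signalling and glucose metabolism had several called genes and list medians near 0. In the lists of insulin signalling, glycolysis and gluconeogenesis, and glycogen, 13.3%, 13.9% and 13.6% of tested genes were called. The share over all tested genes was 3.58%. The medians were 0.02, 0.01 and 0.08. Of 30 genes of insulin signalling, 3 rose and 1 fell, with a median of 0.02. Enpp1, which blocks the insulin receptor, rose from 158, 118, 159 and 167 to 268, 298, 302 and 314 (0.97 ± 0.15, adjusted p = 1.53e-07) and kept its call in the same 20 alternatives. Deptor, an inhibitor of mTOR, and Pdk1, a kinase that restrains pyruvate dehydrogenase, rose as well. Trib1, a pseudokinase adaptor, fell from 459, 423, 369.7 and 363 to 270.0, 309, 308 and 322 (adjusted p = 0.0328), and was called in 5 of 20 alternatives. Pfkfb3, which makes the activator of glycolysis fructose 2,6-bisphosphate, fell from 178, 154, 108 and 99.6 to 24.1, 48.2, 48.1 and 33.1 (-1.81 ± 0.33, adjusted p = 2.43e-05). The whole list of glycolysis and gluconeogenesis had 2 higher and 3 lower of 36. Pcx, pyruvate carboxylase, rose with a log2 fold change of 0.27, and Pgk1, a glycolytic kinase, had a log2 fold change of -0.24. In glycogen metabolism, 3 of 22 genes rose and none fell. The largest was Ppp1r3c, which brings protein phosphatase to glycogen, with 205, 399.9, 498 and 574 in young and 883, 1108, 1073 and 960.1 in aged livers (adjusted p = 0.00126). Gaa, the lysosomal glucosidase, was among the others.

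A few enzymes of amino acid breakdown fell. Of 41 genes, 4 fell and none rose. Tdo2, which opens the tryptophan ring, fell from 22772, 20802, 17612 and 19798 to 16181, 15402, 13031 and 14588 (-0.45 ± 0.10, adjusted p = 0.000514). Aadat, an aminotransferase of the same kynurenine pathway, fell from 2415, 2287, 1918 and 1419.5 to 1498, 1298, 814 and 924 (-0.83 ± 0.20, adjusted p = 0.00295). The list's median was -0.05, close to that of all genes. In the urea cycle, 1 of 28 genes was called, Arg1, the last enzyme of the cycle. Arg1 had 17890.1, 18736, 17994 and 17398 in young and 15329.6, 14309, 12098 and 15834 in aged livers (-0.32 ± 0.10, adjusted p = 0.0312). Cps1, the first enzyme, was not called (adjusted p = 0.386), nor was Glul, glutamine synthetase of the hepatocytes around the central vein (adjusted p = 0.184). Of 41 genes of one-carbon and choline metabolism, 2 fell, Etnk2, an ethanolamine kinase (3666, 4247, 3314 and 3296 in young and 2977, 2212, 1522 and 1964 in aged livers, adjusted p = 0.00133), and Nnmt, which methylates nicotinamide (1970.1, 3864, 2369 and 2415 and 2386, 1528, 932 and 1170.1, adjusted p = 0.0389).

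Several genes that handle pyrimidine nucleosides changed in every aged liver. Slc28a1, a sodium-driven importer of pyrimidine nucleosides (ENSMUSG00000025726, chromosome 7, 81114799 to 81170416), had 11.7, 3.8, 2.4 and 12.7 normalised counts in young and 48.2, 44.3, 36.7 and 63.5 in aged livers (2.60 ± 0.40, adjusted p = 6.87e-08). Upp2, a uridine phosphorylase, fell from 2816, 3629.7, 2189.7 and 2668 to 1644, 1234, 856 and 1563 (-1.09 ± 0.19, adjusted p = 6.13e-06). Dpys, which opens the dihydropyrimidine ring, rose from 2145, 1933, 1956 and 2331 to 2984, 3279.8, 2653 and 2605 (adjusted p = 0.00071). In all 3 the ages did not overlap and both sets gave the same direction. Tymp, thymidine phosphorylase, was the remaining call (0.35, adjusted p = 0.0127), so that 3 of 34 genes rose and 1 fell.

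Drug-metabolising enzymes changed gene by gene, in both directions. Of 42 Cyp1, Cyp2 and Cyp3 genes 5 were higher and 4 lower, with a median of 0.08, and without aged replicate 3 or aged replicate 4 there were 3 and 2. Cyp2c37, an enzyme of the central zone, rose from 2129, 1335, 2639.9 and 2568 to 4776, 4886, 3975 and 4187 (1.04 ± 0.19, adjusted p = 3.36e-05). Cyp1a2, which oxidises caffeine and aromatic amines, fell from 6953, 5169.5, 6079.6 and 6439 to 4581, 3462, 2617 and 3903 (-0.76 ± 0.16, adjusted p = 0.00037). Both changes separated the ages. Cyp2b10, the classic target of the receptor CAR, had 10.6, 10.2, 7.1 and 9.8 in young and 12.0, 12.5, 123.2 and 59.0 in aged livers, a rise that lay in the set B pair. Cyp2e1, the ethanol oxidase, was not called (adjusted p = 0.257).

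Among conjugating enzymes Ugt2b1, a glucuronosyltransferase (ENSMUSG00000035836, chromosome 5, 86916638 to 86926530), fell from 13166, 12581, 12331 and 10725 to 7396, 6706, 4260.3 and 5266 (-1.05 ± 0.14, adjusted p = 1.34e-09). Ugt1a9 also fell and Ugt3a1 rose. Of 18 such genes 1 was higher and 2 lower. Carboxylesterases went both ways: Ces1e rose from 1258, 912, 1211 and 1715 to 1802, 2761, 3068 and 2930.2 (1.05 ± 0.19, adjusted p = 2.54e-05) and Ces2c fell from 1141, 557, 835 and 802 to 502, 425, 318 and 404 (-1.02 ± 0.21, adjusted p = 0.000289). These families also hold close copies with uncertain read division. In the Nrf2 antioxidant response 3 of 39 genes rose and 1 fell. Nfe2l2, which encodes Nrf2 itself, rose from 263, 279, 364 and 419.8 to 432, 514, 574 and 599 (0.68 ± 0.17, adjusted p = 0.00693), and its relative Nfe2l1, chosen after its values were seen, rose from 869, 878, 959.8 and 923 to 1278, 1256, 1249 and 1048. Mgst1, a microsomal glutathione transferase, fell with a log2 fold change of -0.27. Of 31 genes for superoxide and peroxide, Prdx1, a peroxiredoxin, fell from 10629.6, 12362, 10544 and 10993 to 10045, 8189.5, 7830.1 and 9154 (adjusted p = 0.00663) and Nnt, which makes mitochondrial NADPH, rose from 859.8, 688, 786 and 794 to 920.3, 926, 1084 and 978 (adjusted p = 0.0249).

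Plasma proteins made by hepatocytes also split. Acute phase genes had 4 higher and 3 lower of 37, without aged replicate 1 there were 5 and 7, without aged replicate 3 there were 2 and 1, and edgeR called 1. Cp, the copper oxidase ceruloplasmin, rose from 8549, 8064, 8148 and 7621 to 9584, 12638, 10738 and 10415 (0.42 ± 0.08, adjusted p = 0.000135) and the change was 0.42 in set A and 0.42 in set B. Hamp, hepcidin, the hormone that limits iron export, had 3049, 8040.2, 5083 and 5638 in young and 7408, 8633, 9535 and 12441 in aged livers (adjusted p = 0.0203). Its groups overlapped, since young replicate 2 lay above aged replicate 1. Serpina3k, among the most abundant transcripts, fell from 158331, 171567, 155536 and 122209.9 to 117011, 107733, 63244 and 81542 (-0.72 ± 0.18, adjusted p = 0.0048). Saa1, a strongly inducible acute phase protein, was not called (adjusted p = 0.0943): young replicate 2 had 4034 normalised counts, the other young livers 382 to 729 and the aged livers 222 to 729. Alb, albumin, was not called either (adjusted p = 0.084). Complement had 1 higher and 3 lower of 36. C8b, C9 and C6, parts of the membrane attack complex, fell. C8b went from 5885, 6064, 5076 and 3841 to 3263, 3689, 1704 and 2651 (-0.88 ± 0.21, adjusted p = 0.00211), and C8b and C6 are on the male-biased list too. In coagulation 1 rose, Kng2, a kininogen, and 2 fell, with F11, coagulation factor XI, going from 916, 962, 662 and 717 to 665, 512, 351 and 437 (adjusted p = 0.00595).

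The iron list had 3 genes higher and 2 lower of 32, with a median of 0.01. Tfrc, the transferrin receptor, fell from 332, 201, 338 and 299 to 120.4, 172, 170.4 and 146 (-0.94 ± 0.21, adjusted p = 0.000673). Scara5, a receptor for ferritin, fell from 131, 268, 142 and 139 to 62.2, 84.8, 50.7 and 43.8 (-1.49 ± 0.28, adjusted p = 4.15e-05). Cp and Hamp, given above, are on the same list. Of the red blood cell markers Hbb-bs and Hba-a1 the first was also lower (chosen after its values were seen), and the pair had a summed level of 14889 to 57430.1 in young and 5879 to 13958 in aged livers, and their part in these values was not tested.

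Large multi-subunit machines had fold changes slightly below 0 in nearly all members, few of them called. Of 82 cytosolic ribosomal protein genes 81 had a fold change below 0 and 3 were called lower, with a median of -0.30. Nuclear-encoded subunits of the respiratory chain and ATP synthase gave 79 of 80 below 0, 6 called and a median of -0.27. Mitochondrial ribosomal proteins gave 74 of 77 below 0, 4 called and a median of -0.21, and the proteasome 42 of 47 below 0, 3 called and a median of -0.16. None of these 4 lists had a gene called higher, and both sets gave medians below 0 in each. The shift was not shared by all aged livers. Relative to young, the mean level of cytosolic ribosomal proteins was -0.048, -0.532, -0.503 and -0.145 log2 units in aged replicates 1 to 4, and 0.299 in young replicate 2 against -0.125 to -0.087 in the other young livers. Without aged replicate 1 the counts called lower were 40, 34, 21 and 22, without young replicate 2 they were 0, 2, 2 and 1, and without aged replicate 3 they were 0, 1, 1 and 1. edgeR called 0, 0, 1 and 1, and 46, 37, 27 and 12 had an unadjusted DESeq2 p under 0.05, against 2154 of 13527 genes in all. Under the spike-in scaling 61, 62, 55 and 40 genes of the 4 lists were called higher and 0 lower in each. The falls are thus relative to the median gene.

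These genes are short, and short transcripts as a class leaned lower in aged livers. The median exonic length was 1776 bases for cytosolic ribosomal proteins and 1697 for the respiratory chain, against 4303 over all tested genes. In the shortest tercile of genes the median log2 fold change was -0.08, with 73 higher and 122 lower, and in the longest it was 0.05, with 81 higher and 45 lower. With offsets for length and GC content the medians were -0.22, -0.15, -0.18 and -0.11 for the 4 lists in the order above, and 8, 9, 5 and 2 genes were called lower. Rplp1, a stalk protein of the large ribosomal subunit, had 5159, 7075, 5838 and 5308 normalised counts in young and 4805, 3318, 3339 and 4543 in aged livers (-0.55 ± 0.14, adjusted p = 0.00676). Atp5b, the catalytic subunit of ATP synthase, had 15206, 14617, 14289.6 and 14343 in young and 12931, 12412, 11952 and 12940.2 in aged livers, a small change with narrow spread (-0.22 ± 0.05, adjusted p = 0.000549). Mrpl20 fell from 393, 429, 399 and 355 to 299, 268, 278 and 279 and Psmb7, a catalytic proteasome subunit, from 678, 725, 692 and 680.5 to 570.0, 495, 494 and 581 (adjusted p = 0.000312 and 0.000652).

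Transcripts of the mitochondrial genome fell too, and young replicate 2 stood above the rest. Of the 13 protein genes 10 had counts and 7 were tested, and 6 of the 7 were called lower with a median of -1.10. mt-Nd2, a subunit of complex I, had 133422, 279489, 128713 and 84142 normalised counts in young and 58149, 67867, 61066 and 71094 in aged livers (-1.28 ± 0.34, adjusted p = 0.00874). All aged livers lay below all young ones. mt-Co1, a subunit of complex IV, had 288156, 523823, 263891 and 198416 and 142399.9, 172690.1, 190121 and 209084, with aged replicate 4 above young replicate 4. The median of the list was -1.58 in set A and -0.45 in set B, without aged replicate 1 there were 2 calls, without aged replicate 2 there was 1, without aged replicate 3 there were 0, without aged replicate 4 there were 3 and without young replicate 2 there were 5. edgeR, the fit with the replicate block and the fit to the 8 livers alone each called 1, and with the spike-in set as a covariate none was called.

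Translation factors had 2 lower and none higher of 54, Eif5a (-0.32) and Eif2s1 (-0.30). Among 22 aminoacyl-tRNA synthetases Tars, which charges threonine, rose from 1823, 1702, 1802 and 1867 to 2112, 2441, 2364 and 2401 (0.37 ± 0.07, adjusted p = 8.08e-05). Clpx, the unfoldase of a mitochondrial protease, rose from 1993, 1872, 2186 and 2514 to 2608, 2792, 3343 and 3197 (0.48 ± 0.12, adjusted p = 0.0076), against 2 falls in its list of 29. Ctsb, the lysosomal protease cathepsin B, was the only call of 48 autophagy and lysosome genes (4857, 5410.2, 4662 and 4859 in young and 6034, 5749.6, 5952 and 5759.5 in aged livers, adjusted p = 0.00608).

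The age difference of many chaperone genes depended on the spike-in set. Of 47 genes of folding and glycosylation in the endoplasmic reticulum 1 was called, Ssr4, a subunit of the translocon-associated complex, which fell from 951, 1153, 1027 and 820.1 to 745, 632, 560.2 and 804 (adjusted p = 0.0056). The list's median was 0.18 in set A and -0.33 in set B, and in 9 of its genes the age difference depended on the set, against 79 of 10799 genes tested in all (0.732%). Of 36 cytosolic heat shock chaperones none was called by DESeq2 or edgeR, with 10 at an unadjusted p under 0.05, and 5 depended on the set. Hspa5, the main chaperone of the endoplasmic reticulum, had 8526, 8169, 14992 and 12558 normalised counts in young and 10449, 17489, 8275 and 7778 in aged livers (interaction adjusted p = 0.000457). It was higher with age in set A (0.75) and lower in set B (-0.78). Both young livers of set B and aged replicate 2 were the highest of the 8. Hsp90ab1, a cytosolic chaperone, was at 8774 to 10678 in young livers, 10235 and 10265 in aged replicates 1 and 2 and at 7446 and 6794 in aged replicates 3 and 4. Both genes were chosen after their values were seen. In the integrated stress response 2 of 25 rose, Fgf21 and Atf5, a factor of the mitochondrial stress response (4001, 4301, 4606 and 4973 in young and 5563, 6406, 6016 and 5209 in aged livers, adjusted p = 0.00309). Fgf21 is also among the called PPAR alpha targets.

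**Figure D5:**
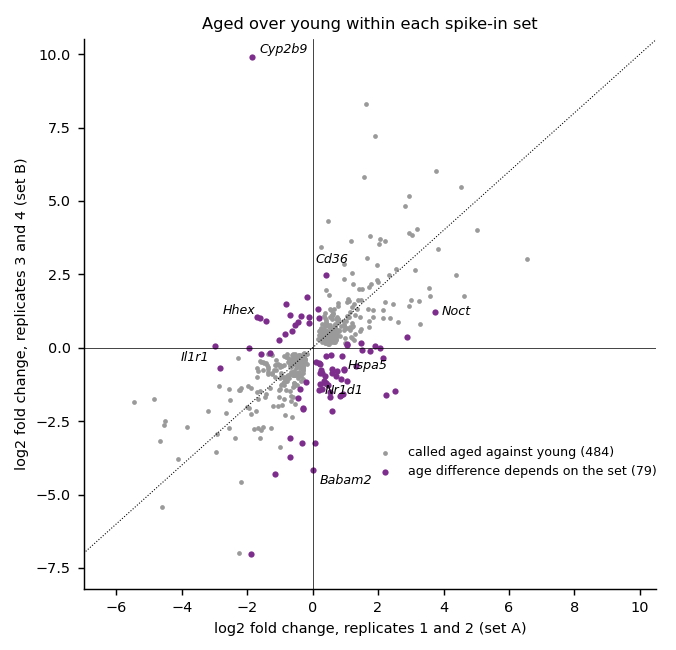
Log2 fold change, aged over young, in set A (replicates 1 and 2, horizontal axis) against set B (replicates 3 and 4, vertical axis) for the 484 genes called over all 8 livers (grey) and the 79 whose age difference depended on the set (purple); the dotted line is equality. Called genes lie mostly in the quadrants of shared sign, which the choice of called genes favours, and purple genes such as Hspa5, Hhex and Babam2 lie off the line.

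Of the 79 genes whose age difference depended on the set, 23 were more positive in set B and 56 more negative, 55 had opposite signs in the sets, and 11 were also called over all 8 livers. The 5 with the lowest interaction p were Babam2, Hhex, Noct, Cyp2b9 and Nr1d1. Babam2, of a deubiquitinating complex in DNA repair, had 164, 192, 184 and 238 normalised counts in young, 189 and 167 in aged replicates 1 and 2 and 11.4 and 12.5 in aged replicates 3 and 4. Both aged livers of set B were thus far below the other 6. Hhex, a homeobox factor of liver development, had 1563 and 1196 in young replicates 1 and 2, 325 and 232 in young replicates 3 and 4, and 499 to 533 in all aged livers. Noct, a deadenylase-like protein with a daily rhythm, had 82.8, 125, 101 and 122 in young and 1221, 1519, 305 and 217 in aged livers, higher in each aged liver but most in set A. The spike-in set and whatever else the livers of a set share cannot be told apart.

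The time of day at which the livers were taken is not given in the sources used here. Of 18 core clock genes 9 had an unadjusted p under 0.05, against 2154 of 13527 genes in all, and 1 was called. This was Cry1, a repressor of the loop, which rose from 52.0, 56.0, 74.6 and 61.5 to 75.3, 86.7, 163 and 131 (0.91 ± 0.26, adjusted p = 0.0188). Arntl, the activator Bmal1, was not called (adjusted p = 0.303), nor was Dbp, an output factor (adjusted p = 0.515), whose values in aged livers were 173, 157, 18.4 and 52.7. Of 19 output genes Noct rose and Usp2, Upp2 and Coq10b fell, with Usp2, a deubiquitinase of the clock, going from 28.7, 76.4, 42.7 and 34.2 to 16.1, 22.2, 8.7 and 15.2 (adjusted p = 0.0146).

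Matrix genes rose in a few members. Of 51 tested 4 were higher and none lower while the median was -0.11, and without young replicate 2, young replicate 3 or aged replicate 2 there were 2. Col5a3, a fibrillar collagen chain (ENSMUSG00000004098, chromosome 9, 20770050 to 20815067), had 260.1, 319.7, 258 and 261 normalised counts in young and 527, 455, 504 and 523 in aged livers (0.87 ± 0.14, adjusted p = 1.33e-07). Mmp14, a membrane protease that cuts collagen, rose from 185, 236, 208 and 211 to 372, 343, 425 and 344 (0.82 ± 0.14, adjusted p = 7.2e-07), and Col18a1, a basement membrane collagen, from 8083, 6895, 7391 and 7369.8 to 9567, 10861, 8680.5 and 8733. In these 3 genes every aged liver exceeded every young one. Among stellate cell and fibroblast markers 2 rose and 1 fell of 24: Ecm1, a matrix protein, rose from 537, 451, 648 and 675 to 818, 846, 808 and 956 (adjusted p = 0.00118), Cxcl12, a chemokine of stromal cells, from 1497, 1377, 1447 and 1720.2 to 1902, 2108, 1918 and 2097 (adjusted p = 0.00353), and Dpt, dermatopontin, fell. The summed stellate markers Lrat, Reln, Des and Ecm1 were at 676.3 to 1109 in young and 1107 to 1462 in aged livers, and their part in the matrix values was not tested. Most of this sum was Ecm1 itself, with a mean of 578 in young and 857 in aged livers. The other markers were not called, with log2 fold changes of 0.06 for Lrat, 0.50 for Reln and -0.58 for Des.

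Of 25 B and plasma cell genes 4 were called higher, all of them constant regions of IgG (Ighg3, Ighg2b, Ighg1, Ighg2c). edgeR and limma-voom each called 1, without young replicate 2 there was 1, without young replicate 1, aged replicate 2 or aged replicate 3 there were 2, and within set A there were 0. Ighg2c had 3.2, 0, 3.6 and 3.9 normalised counts in young and 20.1, 18.3, 19.2 and 11.6 in aged livers (adjusted p = 0.0346) and, like the other 3, rests on few counts in a family of close copies. The B and plasma cell markers Cd79a, Ms4a1, Jchain and Ighm summed to 216.5 to 705 in young and 425.8 to 1320.3 in aged livers, with none called. MHC class II genes, which present antigen on macrophages, dendritic and B cells, leaned lower: all 11 had a fold change below 0, 2 were called, and the median was -1.08. The calls depended on single livers: without young replicate 1 there were 6, without young replicate 2, aged replicate 2 or aged replicate 4 there was 1, without young replicate 3, young replicate 4 or aged replicate 3 there were 0, and edgeR and limma-voom called none of the 11, of which 8 had an unadjusted DESeq2 p under 0.05. With the replicate block 4 were called. H2-Ab1, a class II beta chain, had 228, 418, 513 and 851 in young and 225, 184, 218 and 224 in aged livers (-1.24 ± 0.33, adjusted p = 0.00914). The aged values were level at about the lowest young value, that of replicate 1. Cd74, the class II invariant chain, had 576, 1080.0, 1086 and 1589 and 635, 446, 578 and 491, with overlap (adjusted p = 0.031).

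Interferon-stimulated genes leaned lower. Of 56 tested, 51 had a fold change below 0, 1 was called (Ifi204, 73.2, 125, 80.6 and 78.1 in young and 54.2, 48.2, 46.3 and 58.1 in aged livers, adjusted p = 0.0405) and the median was -0.36. Ifi204 was called in 5 of 20 alternatives, and edgeR and limma-voom called 0 of the 56. Under the spike-in scaling 14 were called higher and 0 lower. Per liver the list was between -0.431 and -0.317 in aged and between -0.197 and 0.205 in young livers. Of 31 listed T, NK and neutrophil markers 18 were tested. Some may have passed the filter on low counts through the young livers, so their median of -1.04 is a description. None of the 18 was called by DESeq2 or edgeR, with 5 at an unadjusted DESeq2 p under 0.05, and none had a mean of 50 normalised counts. T cell markers summed to 25.4 to 48.6 in young and 14.8 to 20.7 in aged livers. Of 33 Kupffer cell and macrophage genes only Marco was called, and of 32 endothelial genes none by either tool (2 at an unadjusted p under 0.05). Of 16 tested genes of the biliary list 1 was called higher and 1 lower, with a median of -0.12 and 10 fold changes below 0. Sox9, a factor of bile duct cells, rose from 26.5, 54.8, 55.7 and 39.1 to 80.3, 84.8, 72.5 and 79.6 (adjusted p = 0.0169), and was called in 10 of 20 alternatives. The biliary markers Krt19, Krt7 and Epcam were not called.

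Proliferation genes had low counts at both ages and leaned lower in aged livers. Of 41 tested, 36 had a fold change below 0, 2 were called and the median was -0.48. Cdk1, the kinase that drives mitosis, had 14.9, 21.7, 22.5 and 24.4 normalised counts in young and 2.0, 1.9, 5.2 and 5.4 in aged livers (adjusted p = 0.000656). Ube2c, a ubiquitin carrier of the anaphase-promoting complex chosen after its values were seen, had at most 3.0 normalised counts in any aged liver and more in each young one (adjusted p = 0.0457). Both separated the ages at a handful of counts. Among cell cycle brakes and senescence-linked genes 1 of 36 was called, Cdkn2c, the inhibitor p18, which fell from 59.4, 54.8, 59.2 and 43.0 to 36.1, 26.0, 19.2 and 25.9 (-1.02 ± 0.25, adjusted p = 0.00485). Cdkn1a, the inhibitor p21, was not called: its values were 40.3, 108, 49.8 and 129 in young and 62.2, 61.6, 246 and 129 in aged livers. No call was made by DESeq2 or edgeR among 42 DNA repair genes (4 at an unadjusted p under 0.05), 19 histone genes (2) or 24 immediate early genes (8).

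A few genes of the transcription and splicing machinery were called. Of 65 genes of RNA polymerase II, initiation and pausing 1 was higher and 1 lower. That is 3.08% called, near the 3.58% of all tested genes. Hexim1, which holds the elongation kinase P-TEFb inactive, rose from 361, 453, 442 and 456 to 655, 626, 581 and 581 (0.51 ± 0.10, adjusted p = 9.1e-05), and Gtf2b, the initiation factor TFIIB, fell with a log2 fold change of -0.45 (adjusted p = 0.032). Of 70 splicing genes 3 rose, among them Hnrnpa0 (0.33) and Hnrnpul2 (0.34), and Snrpd2, a core protein of the spliceosomal particles, fell (-0.52). These calls were 5.71% of the splicing list, and edgeR called 0 of it. Of 31 hepatocyte identity factors only Atf5 was called.

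By gene class, 464 of 12586 protein-coding genes were called (3.69%), 4 of 236 lincRNAs and none of 143 processed pseudogenes, whose median was -0.31. Calls grew with abundance, from 1.66% in the lowest tercile of mean count through 2.66% to 6.41% in the highest. On chromosome 4, where the Mup cluster lies, 6.06% of genes were called.

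The middle-aged livers share the young livers as their reference, so the values are set side by side without a measure of agreement. Serpinb1a stood at 3.52 in aged and 2.91 in middle-aged livers over young on the log2 scale, Slc28a1 at 2.60 and 3.02, Enpp1 at 0.97 and 1.03, and Zbtb16 at -1.99 and -2.13. Mup17 stood at -3.55 and -4.52. These genes were past the adjusted p threshold in both comparisons. Others were past it in aged livers alone: Hexim1 stood at 0.51 and 0.17, Tars at 0.37 and -0.01, and Cp at 0.42 and 0.14, but the difference between the 2 comparisons was not tested. Clpx was past the threshold with opposite signs, at 0.48 in aged and -0.39 in middle-aged livers, while Upp2, past it in aged livers alone, stood at -1.09 and 0.42.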

How the data were processed

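The deposited table holds raw read counts per Ensembl gene for 12 livers. The authors' processing notes, per the labels, name STAR 2.5.2b, SAMtools 1.9, featureCounts, R 3.6.3, edgeR 3.28.1, DESeq2 1.26.0 and the build mm10 (GRCm38). The counting mode for strand was not given in the sources used here, so antisense partners cannot be told apart. Spike-in rows were left out of library sizes and tests.

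Counts were fitted with DESeq2 1.42.0 (R 4.3.3) over all 12 livers with age as the only term. The Wald test of aged against young was adjusted by the Benjamini-Hochberg method after default independent filtering, and a gene was called at an adjusted p under 0.05. Values after ± are standard errors of log2 fold changes. Each sample is 1 animal, so p-values measure the spread between these animals. No replicate pair agreed within sampling noise. edgeR 4.0.16, limma 3.58.1, other scalings, filters, covariates and left-out livers were alternatives, and the fit was tested on simulated data. Gene names and positions came from GENCODE M21.

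The comparison, members and lists were chosen with earlier results of these data known. Genes were named by rule: the 12 largest separated rises and falls that averaged 50 or more normalised counts, up to 3 called per direction in a list at a mean of at least 10 (or the 2 lowest p where none was called), 13 genes whatever their values, and the 5 lowest interaction p. Others are said to be chosen after their values were seen, which also holds where every called member of a list is named. A few genes that meet the rule are not reported here.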

Additional observations from a re-analysis of the deposited data

Results flagged for a closer look

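In 350 groups of 4 livers looked at (the named genes and the library measures), the gap test of Dixon picked out 21 single livers, and chance picks about 1 group in 20. Young replicate 2 stood apart most often. It was high for Igf1 (6271.2 normalised counts), Scara5 (267.5), Saa1 (4033.5), Atp5g2, a subunit of ATP synthase (347.7), Col5a3 (319.7) and Ifi204 (124.8), and low for Cyp4a10 (56.0). Other young livers picked out were replicate 1, low for Hexim1 (360.9) and high for Cyp2b9 (12.7), replicate 4, high for Fitm1 (619.9), and replicate 3, with 22284 genes detected. Among aged livers, replicate 1 was low for Cyp7a1 (365.3) and Cps1 (24853.5) and high for Saa1 (728.6) and the pseudogene Mup-ps20 (18.1). Aged replicate 2 was high for Igf1 (5404.8) and for Bag3, a co-chaperone (852.5). Aged replicate 3 was low for Mbl2, a mannose-binding lectin (3299.0), and for H2-Q7, a non-classical MHC class I gene (349.6). Aged replicate 4 was high for Il1r1 (118.9) and low for Nfe2l1 (1047.7).

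The age difference depended on the spike-in set, by the interaction term in DESeq2, in 79 genes. Written as the log2 fold change in set B minus that in set A, the value was positive for Il1r1 (2.13), Cd36 (2.06), Hhex (2.34) and mt-Nd5, a mitochondrially encoded subunit of complex I (1.38). The fitted value for Cyp2b9 was 11.8, which depends on near-zero counts. It was negative for Noct (-2.51), Babam2 (-4.14), the clock genes Dbp (-1.78) and Nr1d1 (-1.43), the chaperone genes Hspa5 (-1.52), Bag3 (-1.31) and Hsp90ab1 (-0.78), C6 (-0.996) and Gsta2, a glutathione transferase (-0.92).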

How the results depend on the processing

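The number of called genes depended on the tool, the scaling and single livers. edgeR called 172 (94 higher, 78 lower, 84 at least 2-fold), all of them among the 484, and 23 by interaction. Scaling to total gene counts called 787 (648 higher, 139 lower) and scaling to the spike-ins 9208 (9197 higher, 11 lower, 8273 at least 2-fold). Without independent filtering 321 were called (134 lower), with the 8 livers alone 290 (154 higher, 136 lower), and within set A 137 (67 higher, 70 lower). limma-voom called 356, TMM factors 527 and the offsets for length and GC content 569. Leaving out 1 liver gave 237 to 1291 called, 148 to 611 higher, 89 to 680 lower, 89 to 264 at least 2-fold and 49 to 126 by interaction. The lowest count of called genes came without aged replicate 3 and the highest without aged replicate 1. Without young replicate 2 there were 258 and without aged replicate 4 there were 321. The interaction count was lowest without aged replicate 4 and highest without young replicate 2.

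Same-numbered livers did not deviate together (correlations of -0.303, -0.109, 0.013 and -0.018), so the numbers were not taken to pair the samples. With a replicate block 655 genes were called, 180 higher, 475 lower and 457 at least 2-fold, and 303 of them were among the 484.

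Of 171 named genes, 85 kept their direction and their side of the threshold with edgeR, 113 with limma-voom, 168 with TMM factors and 161 without aged replicate 1. Of the same genes, 107 did so without aged replicate 3, 63 within set A and 98 within set B. Some calls held in few of the 20 alternatives with a test. Among others these were Abhd5 (4), Trib1 and Ifi204 (5 each), Gaa, Gtf2b and Cd74 (6 each), Pcx (7), and Arg1 and Tymp (8 each). Direction turned for Cyp2b9 within set A (-1.85) and for Hhex within set B (0.901). The causes were not tested. Under the spike-in scaling, single genes were read by direction relative to the median gene, with no threshold. At 8124312 to 10390377 gene counts per liver, T cell, mitotic and immunoglobulin genes had few counts, and their fold changes rest on few reads.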

Other observations

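Some gene groups were not described above. Of 31 serpins, a family of protease inhibitors and hormone carriers, 4 were higher and 2 lower. That is 19.4% called, against 3.58% of all tested genes, and edgeR called 2. Serpina6, which carries glucocorticoids in blood, rose from 1173, 922, 1212 and 1536 normalised counts in young replicates 1 to 4 to 1538, 1794, 2422 and 2366 in aged (0.74 ± 0.18, DESeq2 adjusted p = 0.00263). Serpina7, which carries thyroid hormone and was chosen after its values were seen, had 185, 86.6, 113 and 546 in young and 422, 629, 1779 and 1478 in aged livers, highest in the set B pair and with overlap between the ages (adjusted p = 0.037). Of 24 genes of MHC class I presentation, 1 was higher and 2 lower (12.5% called). H2-Q7 fell from 497, 585, 619.7 and 583 to 441, 444, 349.6 and 451 (-0.44 ± 0.11, adjusted p = 0.00361), and Psmb9, an immunoproteasome subunit, had 195, 244, 176 and 240.2 in young and 192, 133, 103 and 114 in aged livers (adjusted p = 0.0457). Aged replicate 1 lay inside the young range of Psmb9, while H2-Q7 was lower in every aged liver.

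Of 37 hepatocyte drug and anion transporters 2 were higher and 1 lower. Slc16a7, a monocarboxylate transporter, had 229, 145, 208 and 295 in young and 245, 328, 624 and 501 in aged livers (adjusted p = 0.0163). Of 30 genes of the pericentral zone, Cyp2c37 rose and Cyp1a2 fell, and the list's median was 0.13. Of 37 chemokine, cytokine and NF-kB genes, Cxcl12 rose and Il1r1 fell.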
